A study of Homo sapiens with 8 samples.

Results

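The miRNAs described here are the 4 mature products of the hairpins MIR221 and MIR222, which are miR-221-3p, miR-221-5p, miR-222-3p and miR-222-5p. They were taken by name from the table of raw counts and make up 4 of its 1780 mature miRNA entries, and the rule that lists them uses no measured value, although they were proposed with earlier results of these data known. Small RNA had been sequenced from DLD1 and HT29, 2 established human colorectal adenocarcinoma cell lines, each grown for 6 days either as a monolayer (2D) or as multicellular spheroids (MCS). Every line and culture had 2 libraries that the labels call biological replicates, 8 libraries in all, and what separated the replicates (culture, passage or day) is not stated. DLD1 cells were kept in RPMI and HT29 cells in DMEM. Monolayers were started from 35000 DLD1 or 100000 HT29 cells in a flask, and spheroids from 7000 DLD1 or 3500 HT29 cells per agarose-coated round-bottom well. The NEXTflex small RNA kit was used in version 3 for DLD1 and in version 2 for HT29, so that cell line, medium and kit cannot be told apart, and MCS was compared with 2D within each line.

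A miRNA hairpin is cut into a duplex of a 5p and a 3p strand, of which one is usually kept by Argonaute as the guide and the other degraded. MIR221 and MIR222 lie side by side on the X chromosome, and the 3p strand is the abundant strand of both. Both 3p strands carry one seed, the stretch of bases that pairs with target mRNAs, and they are known to repress the cell cycle inhibitors CDKN1B and CDKN1C and the receptor KIT. They are abundant in many tumours and are usually described as promoting proliferation.

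The hairpins and mature strands below show how alike the products of both genes are. The sequences come from the RefSeq table for GRCh38.p14, which matched 3 of the 4 mature miRNAs and both hairpins, and they were placed on GRCh37, the build to which the reads were aligned, by exact match. Capitals mark the mature strands within the hairpins (miR-221-3p in MIR221, miR-222-5p and then miR-222-3p in MIR222) and the seed, bases 2 to 8, in the mature sequences.
MIR221 hairpin, chrX:45605585-45605694, minus strand: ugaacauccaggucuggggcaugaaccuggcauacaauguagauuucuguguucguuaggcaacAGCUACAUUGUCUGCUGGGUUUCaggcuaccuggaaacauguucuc
MIR222 hairpin, chrX:45606421-45606530, minus strand: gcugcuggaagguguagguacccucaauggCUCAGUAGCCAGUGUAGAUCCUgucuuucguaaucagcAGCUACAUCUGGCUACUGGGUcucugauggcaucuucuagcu
hsa-miR-221-3p, chrX:45605608-45605630: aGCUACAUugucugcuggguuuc
hsa-miR-222-3p, chrX:45606442-45606462: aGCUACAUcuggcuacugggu
hsa-miR-222-5p, chrX:45606479-45606500: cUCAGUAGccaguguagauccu

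The 3p strands were identical over their first 8 bases and, aligned from the first base, at 11 of 21 positions. Among the 2370 mature human miRNAs of the table no other shared their seed GCUACAU, and miR-222-5p was alone with its seed UCAGUAG. Both hairpins are 110 bases long, lie 726 bases apart on the same strand, and are the only miRNA genes within 10000 bases of one another. They lie inside the long non-coding RNA gene MIR222HG (chrX:45604638-45629677, minus strand), 23147 bases (MIR222) and 23983 bases (MIR221) downstream of its start. No exon spans either hairpin. An exon of 1 transcript overlaps part of the MIR221 hairpin, and none overlaps the MIR222 hairpin. By RNAfold the minimum free energy was −46.5 kcal/mol for MIR221 and −53.8 kcal/mol for MIR222.

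Because both hairpins sit in one host gene, the start of MIR222HG is shown as well (chrX:45629621-45629920 of GRCh37, minus strand, 250 bases before to 50 after the RefSeq start), with motif matches in capitals.
MIR222HG promoter: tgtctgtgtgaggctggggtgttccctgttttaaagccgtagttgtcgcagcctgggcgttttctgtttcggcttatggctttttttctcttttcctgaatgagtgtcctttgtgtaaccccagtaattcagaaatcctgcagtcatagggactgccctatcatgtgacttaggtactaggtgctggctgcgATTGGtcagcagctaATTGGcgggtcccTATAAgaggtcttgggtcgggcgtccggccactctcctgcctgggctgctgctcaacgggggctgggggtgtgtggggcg

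Searched on both strands, the window held 1 match to TATAA, 30 bases upstream of the start, and 2 matches to CCAAT on the reverse strand, 58 and 43 bases upstream. It held 0 matches to TGANTCA. Of 35116 promoters of the same length, 20.4% held TATAA, 34.6% held CCAAT and 7.71% held TGANTCA. The motifs did not overlap, and a match is given as a description of the letters only.

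The libraries held 10495634 to 26211524 miRNA counts. Levels are given as normalized CPM, which are CPM of the library total after division by an upper quartile factor computed within the line, so that they compare libraries of one line. Replicates lay closer together in DLD1 than in HT29, with median absolute log2 differences between replicates of 0.21 in 2D and 0.33 in MCS for DLD1 against 0.62 and 0.71 for HT29. All 8 markers of intestinal epithelium were detected in both lines, and 7 of the 8 were called higher in DLD1 MCS, beside 29.8% of all miRNAs tested in that line. In DLD1 MCS their summed level was 170128 to 232005 against 85234 to 93871 normalized CPM in 2D. In HT29 this sum was 170667 to 196288 in MCS against 114495 to 134123 in 2D, with 0 of 8 called by edgeR. Of 4 blood cell markers, miR-223-3p was at 0 in every library, and the summed level was at most 0.798 normalized CPM in DLD1 but 6.96 to 12.2 in HT29 2D and 41.3 to 51.8 in HT29 MCS, nearly all of it miR-150-5p. The 5 markers of stroma, muscle and vessels summed to 71.5 to 86.9 in DLD1 2D and 89.7 to 143 in DLD1 MCS, and to 23.9 to 101 and 29.8 to 131 in HT29. The part of these markers in the results below was not tested.

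The 4 strands spanned a wide range of abundance. In DLD1 2D, miR-222-3p was the 11th and 9th most counted miRNA of its library, with 243971 and 486685 raw counts, and in DLD1 MCS it was the 25th and 27th, with 135319 and 129049. miR-221-3p was counted 145901 and 272428 times in DLD1 2D (ranks 21 and 19) and 131364 and 113857 times in DLD1 MCS (ranks 26 and 31). In HT29 the order of the 3p counts was turned, a difference between lines that cannot be told apart from the kit version. miR-221-3p had 50576 and 458346 counts in HT29 2D (ranks 17 and 9), against 19443 and 152798 of miR-222-3p (ranks 35 and 29). The 5p strands were rarer, and miR-222-5p was the rarest member, with 840 and 1126 counts in DLD1 2D, 187 and 135 in DLD1 MCS, and 92 to 1546 in HT29. Together the 4 strands took 2.80% ± 0.369 of the miRNA counts in DLD1 2D and 1.36% ± 0.203 in DLD1 MCS (SD, n = 2). In HT29 the share was 1.59% ± 1.18 for 2D and 1.42% ± 0.914 for MCS (SD, n = 2).

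**Figure D1:**
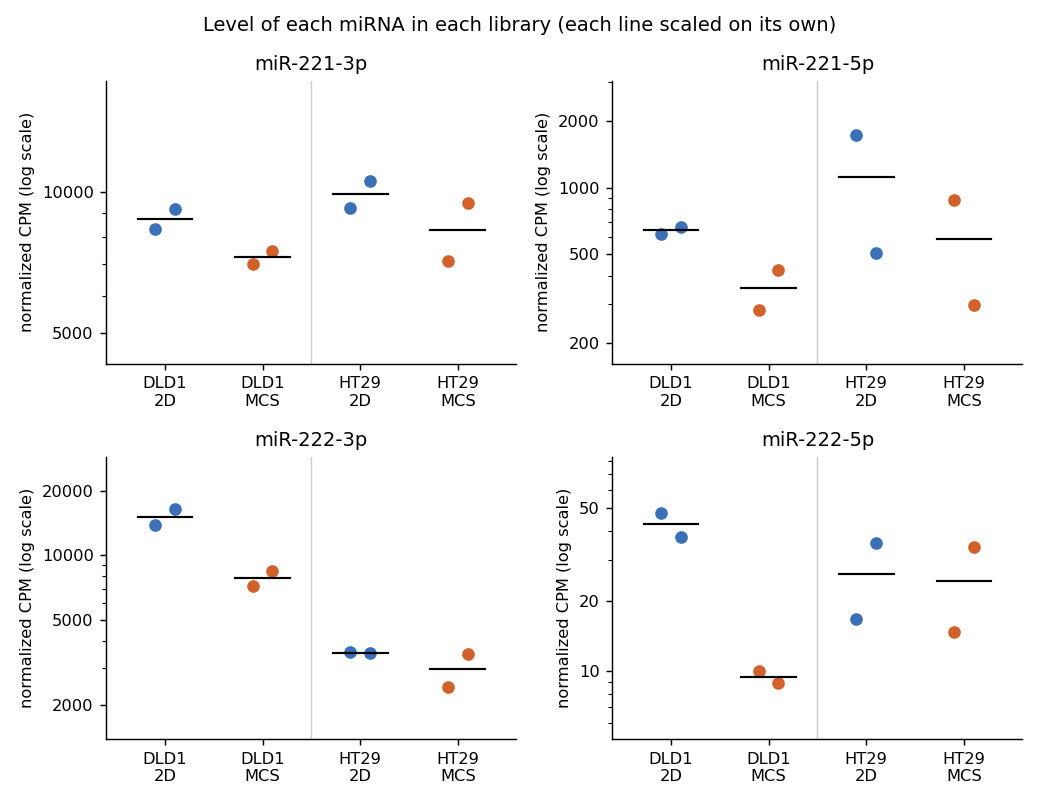
Normalized CPM (log axis) of each strand in each of the 8 libraries, with points for libraries and a bar for the mean of the 2 replicates, each cell line scaled on its own. In DLD1 every MCS library lies below both 2D libraries for all 4 strands, while the HT29 groups overlap for all strands but miR-222-3p.

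In DLD1, both strands of miR-222 and the 5p strand of miR-221 were called lower in spheroids. miR-221-3p was not called in the main fit, and its result depended on the scaling. All 4 members passed the abundance filter of a mean of at least 10 CPM, and 3 of them were called lower in MCS, with a fold change of at least 1.5 and an adjusted p-value under 0.05. Over all 346 miRNAs tested in DLD1, 41.3% were called in either direction and 11.6% were called lower in MCS. In this fit edgeR took the spread of each miRNA wholly from a trend shared by all tested miRNAs. Its standard errors and p-values therefore do not measure the spread of a single strand. The filter was passed by miR-222-5p through its 2D libraries alone, so that its difference is in part a condition of its being tested, and the count of 3 rests on it for 1. Since the RNA came from whole cultures, fewer cells holding a miRNA and less of it per cell cannot be told apart.

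miR-222-3p, the guide strand of MIR222, stood at 13910 and 16364 normalized CPM in the DLD1 2D libraries and at 7231 and 8455 in the MCS libraries. The groups did not overlap, and the means of 15137 ± 1735 and 7843 ± 866 (SD, n = 2) differed 1.93-fold. The log2 fold change of MCS against 2D was −0.95 with a standard error of 0.27 (edgeR quasi-likelihood test, Benjamini-Hochberg adjusted p = 0.00185). The call was lost without replicate 2 of 2D (log2 fold change −0.95, edgeR adjusted p = 0.0877) and when all 8 libraries shared 1 fit (edgeR adjusted p = 0.0936, with 2.02% of all miRNAs called lower), the largest values over its alternatives, which began at 1.08e-11 with DESeq2.

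The abundant strand of MIR221, miR-221-3p, stood at 8319 and 9160 normalized CPM in 2D and at 7020 and 7460 in MCS. Both MCS libraries lay below both 2D libraries, but the means of 8739 ± 595 and 7240 ± 311 (SD, n = 2) differed only 1.21-fold. Its log2 fold change of −0.27 with a standard error of 0.26 did not pass the test (edgeR adjusted p = 0.412). This value depended on the scaling, being −0.63 with library totals alone (adjusted p = 0.00321 by edgeR) and −0.72 when the upper quartile was taken over tested miRNAs alone (adjusted p = 0.00685 by edgeR), and it was called under both. Under these scalings the log2 fold changes of all tested miRNAs shifted by a median of −0.37 and −0.46. The share of all miRNAs called lower rose to 24% and 26.9%. With TMM factors miR-221-3p changed by −0.47 (edgeR adjusted p = 0.0361) and with DESeq2 by −0.51 (adjusted p = 0.00521), both short of a 1.5-fold change.

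Of the 5p strands, one changed about as much as miR-222-3p and the other more. miR-221-5p, the minor strand of MIR221, stood at 621 and 661 normalized CPM in DLD1 2D and at 282 and 425 in MCS, with means of 641 ± 28.6 and 353 ± 101 (SD, n = 2). It was 1.82-fold lower in MCS (log2 fold change −0.86, standard error 0.23, edgeR adjusted p = 0.00106), and the lower of the 2D libraries was well above the higher of the MCS libraries. In the fit of all 8 libraries its call was lost (edgeR adjusted p = 0.504), the highest value over its alternatives, which began at 1.32e-08 with DESeq2.

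miR-222-5p, the minor strand of MIR222, fell furthest, from 47.9 and 37.9 normalized CPM in 2D to 9.99 and 8.85 in MCS. The means of 42.9 ± 7.09 and 9.42 ± 0.811 (SD, n = 2) differed 4.54-fold (log2 fold change −2.18, standard error 0.35, edgeR adjusted p = 6.49e-09). Because these values come from a test that it entered through its 2D level, the fit without any abundance filter is given beside them, where the log2 fold change was −2.18 with an edgeR adjusted p of 5.03e-10. It was not tested where at least 10 CPM was asked of every library. For all 4 strands the DLD1 groups did not overlap and lay lower in MCS, as did 25.4% of all miRNAs tested.

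**Figure D2:**
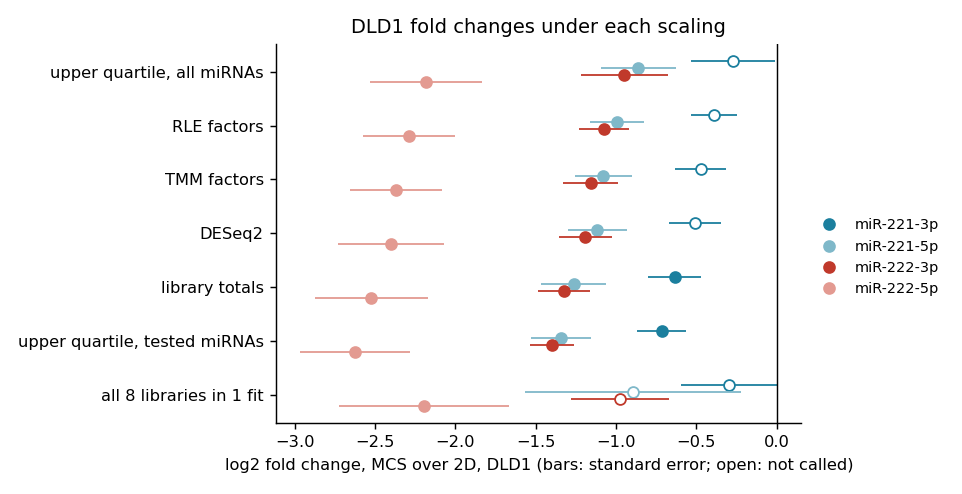
Log2 fold change of MCS against 2D in DLD1 for each strand under 6 scalings or tests and in the fit of all 8 libraries, with bars for the standard error and open points for values that were not called. The values of miR-221-3p move from −0.27 to −0.72 with the scaling and are called under 2 of the settings drawn.

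**Figure D3:**
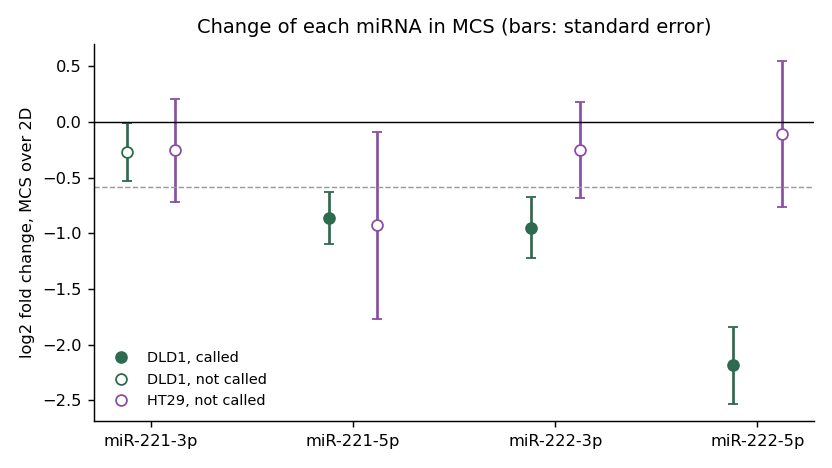
Log2 fold change of MCS against 2D for each strand in each cell line from edgeR, with bars for the standard error, n = 2 libraries per culture, filled points for called values and a dashed line at a 1.5-fold decrease. In DLD1 the values run from −0.27 for miR-221-3p to −2.18 for miR-222-5p, and in HT29 the error bars are wider, with values from −0.11 to −0.93.

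In HT29, 0 of the 4 strands were called, and none had an unadjusted p-value under 0.05 (edgeR quasi-likelihood test). Over the 301 miRNAs tested in HT29 the quasi-likelihood test called 0%, and 3.99% had an unadjusted p-value under 0.05. The exact test of edgeR and DESeq2 also called 0 of the 4 strands, beside 5 and 12 of the 301 miRNAs. All 4 fitted values were below 0, but the spread between replicates was as large as most of these differences.

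miR-221-3p, the strand with the highest level of the 4 in HT29, stood at 9225 and 10533 normalized CPM in 2D and at 7102 and 9466 in MCS, and the groups overlapped. Its means of 9879 ± 925 and 8284 ± 1672 (SD, n = 2) gave a log2 fold change of −0.25 with a standard error of 0.46 (edgeR adjusted p = 0.977). miR-222-3p stood at 3547 and 3511 in 2D and at 2446 and 3492 in MCS. Its groups did not overlap, as for 10.6% of all tested miRNAs in this direction, but replicate 2 of MCS lay directly under the 2D libraries, and the log2 fold change was −0.25 with a standard error of 0.43 (edgeR adjusted p = 0.977).

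miR-221-5p differed more between HT29 replicates than between cultures, at 1725 and 507 normalized CPM in 2D and 879 and 295 in MCS. In both cultures replicate 1 held the higher level, and the log2 fold change was −0.93 with a standard error of 0.84 (edgeR adjusted p = 0.977). Without replicate 1 of 2D this value became 0.20. miR-222-5p showed the opposite order of replicates, with 16.8 and 35.5 normalized CPM in 2D and 14.7 and 34.0 in MCS, and a log2 fold change of −0.11 with a standard error of 0.65 (edgeR adjusted p = 0.977). Its value became 0.45 without replicate 2 of 2D and 0.35 without replicate 1 of MCS.

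Whether the lines responded differently was tested by the interaction of line and culture, fitted to all 8 libraries, and 0 of the 4 strands passed (edgeR quasi-likelihood test). The background was 0% of 250 miRNAs tested in both lines, and 9.2% had an unadjusted p-value under 0.05. The response of miR-222-5p was higher in HT29 than in DLD1 by 2.03 on the log2 scale with a standard error of 0.73. It was the only one of the 4 with an unadjusted p-value under 0.05 (edgeR unadjusted p = 0.0271, adjusted p = 0.376). In DLD1 miR-222-5p met the abundance filter only through its 2D libraries. A fall in DLD1 is thus in part a condition of its entering this test, also in the settings below. Without any abundance filter its difference was 2.03 (edgeR adjusted p = 0.358). With the filter, DESeq2 gave miR-222-5p an adjusted p of 0.0677, and called 8.4% of all miRNAs. miR-222-3p differed by 0.68 with a standard error of 0.40 (edgeR adjusted p = 0.674). The responses of miR-221-3p and miR-221-5p differed by −0.0096 with a standard error of 0.39 and by −0.063 with a standard error of 0.96. With the replicate number as a block, a number that the labels share without saying what it stands for, the difference of miR-222-5p was called (edgeR adjusted p = 0.00182), beside 16% of all miRNAs.

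The arms of one hairpin can be compared inside a library without any scaling factor. In DLD1 2D there were 290 and 432 reads of miR-222-3p for each read of miR-222-5p, and in DLD1 MCS there were 724 and 956. Every MCS library thus lay above every 2D library. How many of all hairpins were separate in this way was not counted. The log2 ratio of 3p to 5p went from 8.47 to 9.70, a change of 1.23 with a standard error of 0.32 (limma across all hairpins, adjusted p = 0.00264). Limma pooled the spread of all DLD1 hairpins completely, so each got this same standard error. Neither that error nor the p-value measures the spread of a single hairpin. Of 84 hairpins with both arms at a mean of at least 10 CPM in DLD1, 13.1% passed this test. The miR-222 hairpin was among them only through the 2D level of miR-222-5p, so that a higher ratio in MCS is in part a condition of its being tested, and with both arms at 10 CPM in every library it was not tested. The miR-222 call was lost without replicate 1 of 2D (change 0.94) and without replicate 2 of MCS (change 1.03), fits that leave 1 library in a culture. It was also lost when hairpins down to a mean of 1 CPM were included (limma adjusted p = 0.277), where 0 of 163 hairpins passed.

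For miR-221 in DLD1 there were 13.4 and 13.8 reads of the 3p arm per 5p read in 2D and 24.9 and 17.6 in MCS. The groups did not overlap here either. The change of 0.62 in the log2 ratio, from 3.77 to 4.39, with the same pooled standard error of 0.32, did not pass (limma adjusted p = 0.162). Whether the changes of the 2 hairpins differed from each other was not tested.

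In HT29 the arm ratios followed the replicates. There were 5.35 and 20.8 reads of miR-221-3p per read of miR-221-5p in 2D and 8.08 and 32.1 in MCS, a change of 0.61 in the log2 ratio with a standard error of 1.06 (limma adjusted p = 0.998). The miR-222 arms gave 211 and 98.8 reads of 3p per 5p read in 2D and 167 and 103 in MCS, a change of −0.14 with a standard error of 0.83 (limma adjusted p = 0.998). Replicate 1 had the lower ratio for miR-221 and the higher ratio for miR-222 in both cultures. Without replicate 1 of 2D the changes became −0.37 for miR-221 and 0.40 for miR-222, and without replicate 2 of MCS −0.38 and 0.20. Of 75 hairpins tested in HT29, 0% passed by limma, and 1 had an unadjusted p-value under 0.05.

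**Figure D4:**
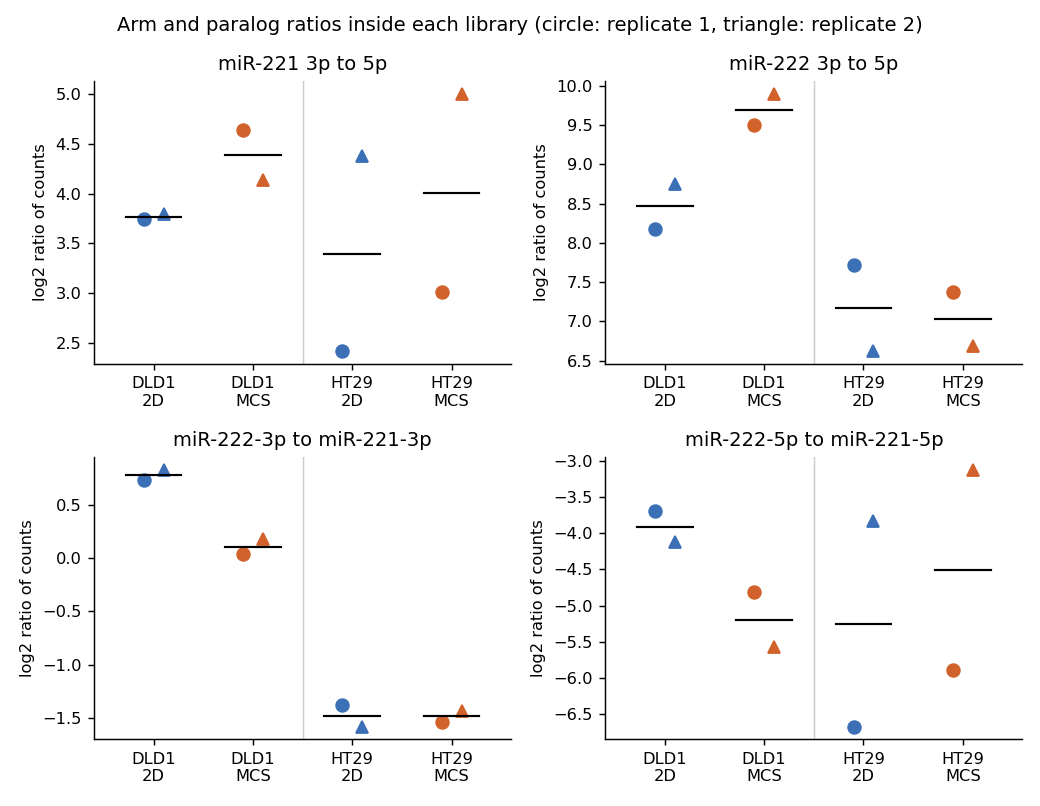
Log2 ratio of counts in each of the 8 libraries for the 3p to 5p arms of each hairpin and for miR-222 to miR-221 within each arm, with circles for replicate 1, triangles for replicate 2 and bars for the mean. In DLD1 the MCS and 2D libraries are separate in all 4 ratios, and in HT29 they overlap in all 4. The 4 ratios are formed from the same 4 strands and are not independent. How many other hairpins were separate was not counted.

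Among all DLD1 hairpins the size of the miR-222 change ranked 5th of 84 and that of miR-221 ranked 27th. The median absolute change was 0.43 and the 90th percentile 0.96. The miR-222 hairpin was among the 84 only through the 2D level of miR-222-5p. Its rank here and its fall in both arms are thus in part conditions of its being tested. Both arms of a hairpin were called in the same direction for 19 hairpins, of which 4 fell, miR-222 among them, in opposite directions for 1, and one arm alone was called for 31, miR-221 among them. The minor arm had the lower fold change in 63.1% of DLD1 hairpins, as it had for both miR-221 and miR-222, and in 53.3% of HT29 hairpins. The smallest adjusted p-values in DLD1 belonged to miR-27a (change 1.61, limma adjusted p = 8.78e-05), let-7b (change −1.54, limma adjusted p = 0.000110) and miR-210 (change 1.502, limma adjusted p = 0.000131). In HT29 the miR-221 and miR-222 changes ranked 29th and 62nd of 75, and the smallest adjusted p-value, 0.998 by limma, was shared by so many hairpins that none is named.

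**Figure D5:**
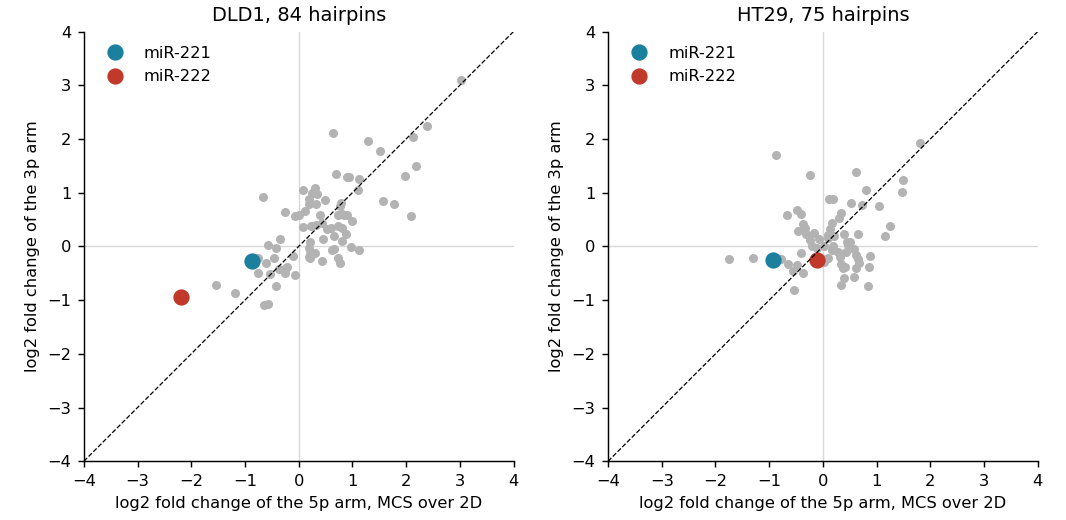
Log2 fold change (MCS against 2D) of the 3p arm against that of the 5p arm for every hairpin with both arms tested, 84 in DLD1 and 75 in HT29, with miR-221 and miR-222 marked and the line of equal change drawn. In DLD1 both marked hairpins lie above the line, in the quadrant where both arms are below 0.

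The 3p strands share a seed, so the balance between them was compared as well. In DLD1 2D there were 1.67 and 1.79 reads of miR-222-3p per read of miR-221-3p, and in DLD1 MCS 1.03 and 1.13. The excess of miR-222-3p reads was thus nearly gone in spheroids. The ratio in MCS was 0.625 of that in 2D and the groups did not overlap (exact permutation test, two-sided p = 0.333, the smallest that 2 against 2 libraries can give, adjusted p = 0.667 over 8 tests). In HT29 the ratio was 0.384 and 0.333 in 2D and 0.344 and 0.369 in MCS, with more reads of miR-221-3p in every library (exact permutation p = 1).

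Between the 5p strands, there were 0.0771 and 0.0572 reads of miR-222-5p per read of miR-221-5p in DLD1 2D and 0.0355 and 0.0208 in DLD1 MCS (exact permutation p = 0.333). In HT29 the ratio was 0.00973 and 0.0700 in 2D and 0.0167 and 0.115 in MCS (exact permutation p = 0.667), and it followed the replicate number more than the culture. Over both lines together, with labels permuted within each line, the exact permutation p-values for the 4 ratios were 0.389 for the miR-221 arms, 0.278 for the miR-222 arms, 0.167 for miR-222-3p to miR-221-3p and 0.833 for miR-222-5p to miR-221-5p. The smallest value this design allows is 0.0556, and the adjusted p-values of these exact tests were 0.519 for the first 3 and 0.833 for the last. A test of the difference between the lines, added after the data were seen, gave exact permutation p-values of 1, 0.222, 0.222 and 0.333 in the same order, and adjusted values of 1, 0.444, 0.444 and 0.444.

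Summed over both 3p strands, which carry the shared seed, DLD1 held 22229 and 25524 normalized CPM in 2D and 14251 and 15916 in MCS. The means of 23876 ± 2330 and 15083 ± 1177 (SD, n = 2) differed 1.58-fold, and most of the difference was miR-222-3p. In HT29 the sums were 12772 and 14044 in 2D and 9548 and 12958 in MCS, with means of 13408 ± 900 and 11253 ± 2411 (SD, n = 2). The sum was lower in MCS by 1.19-fold there, which was within the spread of the MCS libraries.

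To order the 4 groups, levels were recomputed with 1 set of factors over all 8 libraries, and differences between lines on this scale cannot be told apart from the kit. miR-221-3p was highest in HT29 2D (13063 ± 1316 normalized CPM), followed by HT29 MCS (10589 ± 1914), DLD1 2D (6771 ± 692) and DLD1 MCS (5526 ± 184). No neighbours in this order overlapped. The HT29 2D and MCS libraries of miR-221-3p were separate only with these factors, and they overlapped with the factors computed within the line. miR-222-3p had another order, with DLD1 2D highest (11738 ± 1745), then DLD1 MCS (5971 ± 205), HT29 2D (4664 ± 0.682) and HT29 MCS (3793 ± 866), again without overlap between neighbours. miR-221-5p ran from HT29 2D (1471 ± 1128) over HT29 MCS (758 ± 545) and DLD1 2D (497 ± 39.2) to DLD1 MCS (267 ± 56.7), and the first 3 were not separate. For miR-222-5p, HT29 2D (34.6 ± 17.8), DLD1 2D (33.1 ± 4.35) and HT29 MCS (31.0 ± 16.8) were not separate, and DLD1 MCS (7.22 ± 1.17) lay below them. The share of all miRNAs with such separate neighbours was not counted. All errors are SD with n = 2.

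Across the 8 libraries, with each line centred on its own mean, the log2 levels of miR-221-3p and miR-222-3p had a Pearson r of 0.84, and those of miR-222-3p and miR-222-5p one of 0.88. miR-221-5p stood apart from its partner strand, with r = 0.0097 against miR-221-3p and r = 0.33 against miR-222-3p. These values describe 8 libraries that share their scaling and their large replicate differences in HT29, and no test was made. Of 249 miRNAs, those most like miR-221-3p were miR-25-5p (r = 0.97), miR-149-5p (r = 0.95) and miR-671-3p (r = 0.94), and those most like miR-222-3p were miR-196a-5p (r = 0.93), miR-99b-3p (r = 0.92) and miR-33b-3p (r = 0.91). For miR-221-5p they were let-7f-1-3p (r = 0.99), miR-335-3p (r = 0.96) and miR-99b-5p (r = 0.96), and for miR-222-5p they were miR-2277-5p (r = 0.95), miR-33b-3p (r = 0.92) and miR-7974 (r = 0.88).

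Other miRNAs usually described as promoting growth gave few calls in DLD1. Of 11 such miRNAs, which include the miR-17-92 cluster and miR-21-5p, all 11 were tested, 1 rose (miR-19b-3p, log2 fold change 0.61, standard error 0.23, edgeR adjusted p = 0.0208) and 1 fell (miR-18a-5p, log2 fold change −0.61, standard error 0.24, edgeR adjusted p = 0.0270). Their median log2 fold change was 0.16, beside 0.23 over all tested miRNAs. Their summed level was 171104 to 270190 normalized CPM in DLD1 MCS against 270259 to 312440 in 2D. Among them, miR-21-5p had a log2 fold change of −0.58 and was not called. Over all tested miRNAs 29.8% rose and 11.6% fell. Of 15 miRNAs described as restraining growth, 12 were tested, 6 rose and 0 fell, with a median of 0.59. Of the 8 let-7 miRNAs among them, a family known to repress RAS and MYC, 4 rose and 4 were not called, the latter with log2 fold changes of 0.061 to 0.48. The largest rises of the list were those of let-7b-5p at 2.10 (standard error 0.28, edgeR adjusted p = 1.96e-12) and let-7c-5p at 2.07 (standard error 0.35, edgeR adjusted p = 3.42e-08), and closely related let-7 members could hold reads of one another. In HT29, 0 of 11 and 0 of the 10 tested restraining miRNAs were called by edgeR, with median log2 fold changes of 0.049 and 0.089 beside 0.029 over all.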

How the data were processed

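The authors trimmed reads with Cutadapt, aligned them to GRCh37 with Bowtie2 (1.11 and 2.1.0 in the submitters' processing notes) and counted them on the mature miRNAs of miRBase. The deposited values are raw counts per mature miRNA and library, with no normalization or pooling. How reads matching several miRNAs, and strand, were treated is not given in the sources used here. Entries naming no miRNA (15, holding 0.00988% of the counts of HT29 2D replicate 2 and 0 elsewhere) were left out.

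Counts were tested with edgeR 4.0.16 in R 4.3.3, using upper quartile factors over miRNAs with at least 1 count in the line, a mean of at least 10 CPM, the quasi-likelihood test and Benjamini-Hochberg adjustment over all miRNAs tested. MiRNAs were called at a 1.5-fold or larger change with an adjusted p-value under 0.05 (for the interaction, the adjusted p-value alone). Arm ratios, log2((3p + 0.5)/(5p + 0.5)), were tested with limma 3.58.1 over all hairpins. The tests were tried on simulated counts with a single spread for all miRNAs and no replicate structure such as that of HT29. No result given here rests on that trial. The alternatives were other scalings, filters and thresholds, DESeq2 1.42.0, edgeR's exact test, a replicate block, 1 fit of all libraries and each library left out. Hairpins were folded with ViennaRNA 2.7.2.

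The miRNAs named are the 4 members, the 3 most like each by Pearson r of log2(normalized CPM + 1), up to 2 called rises and falls per growth list, the 3 smallest adjusted p-values of the arm test, and markers. Members, lists and tests were chosen with earlier results of these data known.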

Additional observations from a re-analysis of the deposited data

How the results depend on the processing

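Each group had 2 libraries, the biological coefficient of variation was 0.193 in DLD1 and 0.521 in HT29, and the lowest count of a member was 92. In DLD1 all 4 strands were below 0 under every alternative in which they were tested. The number called, 3, became 1 (miR-222-5p) with all 8 libraries in 1 fit, and 4 with library totals alone or the upper quartile over the tested miRNAs. It became 2 where every library needed 10 CPM, since miR-222-5p was then not tested. With a library left out, the log2 fold change of miR-222-3p ran from −1.19 to −0.95 and that of miR-221-5p from −1.25 to −0.77. The DLD1 arm call (1 hairpin) became 0 with hairpins down to a mean of 1 CPM, where 0 of 163 hairpins passed. It became 0 where both arms needed 10 CPM in every library, since miR-222 was then not tested. It was also lost with some libraries left out. In HT29 the count stayed 0 under all 16 alternatives. The cause of these changes was not tested, apart from the hairpin that was not tested.

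The replicate numbers are shared by label only. Deviations of equally numbered libraries correlated at r = 0.32 in DLD1 and 0.79 in HT29. With the replicate number as a block the DLD1 calls stayed at 3 strands, beside 11.6% of all miRNAs called lower. The arm test still called 1 of the 2 hairpins, beside 18 of all 84 hairpins. HT29 calls over all miRNAs went from 0 to 47 (0 of the 4 strands, miR-221-5p at an edgeR adjusted p of 0.0523). The interaction called 1 strand, miR-222-5p (2.03, edgeR adjusted p = 0.00182), beside 16% of all miRNAs. This strand entered that test through its DLD1 2D level.

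Signs that turned belonged to values that no setting called. The interaction of miR-221-3p was 0.030 with TMM, 0.10 with RLE, 0.48 with library totals, 0.50 with the upper quartile over tested miRNAs and 0.21 with DESeq2, and that of miR-221-5p was 0.11, 0.10, 0.61, 0.50 and 0.16. With each library left out, the ranges were −0.19 to 0.23 and −1.004 to 1.104 for these interactions, −1.95 to 0.20 for miR-221-5p and −0.86 to 0.45 for miR-222-5p in HT29, −0.38 to 1.61 and −0.69 to 0.40 for the miR-221 and miR-222 arm ratios in HT29, −0.11 to 0.096 and −0.67 to 2.17 for the log2 ratio of miR-222 to miR-221 in HT29 (3p and 5p), and −0.98 to 0.44 for that of the 5p strands over both lines. The interaction count stayed 0 to 0 with a library left out.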
